A study of Mus musculus with 35 samples.

Results

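The CatSper channel subunits are 8 of the 55356 genes counted in this mouse study. They were listed by symbol, as the 4 pore-forming subunits *Catsper1*, *Catsper2*, *Catsper3* and *Catsper4* and the 4 auxiliary subunits *Catsperb*, *Catsperd*, *Catsperg1* and *Catsperg2*, and the rule sets no threshold on a measured value. RNA from adult C57BL/6J mice was sequenced as 29 RNA-seq libraries in 10 groups of one tissue and sex, namely female and male brain, cerebellum, heart and colon, with ovary and testis. Male heart was sequenced in 2 libraries and each other group in 3. The labels give no genotype or treatment that sets the groups apart, and they do not say which libraries came from separate animals, so the P-values below measure only the spread between these libraries. Iso-seq, the PacBio sequencing of full-length cDNA, defined the gene models on which the reads of all 8 genes were counted, and genes without an Iso-seq transcript were counted on ENSEMBL models.

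CatSper is the main calcium channel of the sperm flagellum. Its pore is built from homologous subunits that each span the membrane and meet around the ion path, and the auxiliary subunits surround this pore with large extracellular domains. Calcium that enters through the channel drives hyperactivated motility, and male mice that lack a pore subunit are infertile. The subunits are made in germ cells of the testis after meiosis has begun, and the finished channel is placed along the tail in linear nanodomains.

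All 8 genes are protein-coding in GENCODE, and each was counted on an Iso-seq locus of its own. The pore genes lie on different chromosomes of GRCm38, *Catsper1* (ENSMUSG00000038498) at chr19:5335625-5344284 on the plus strand, *Catsper2* (ENSMUSG00000033486) at chr2:121393024-121413808 on the minus strand, *Catsper3* (ENSMUSG00000021499) at chr13:55784579-55808998 on the plus strand and *Catsper4* (ENSMUSG00000048003) at chr4:134211966-134227383 on the minus strand. Of the auxiliary genes, *Catsperb* (ENSMUSG00000047014) lies at chr12:101404663-101625818 and *Catsperd* (ENSMUSG00000040828) at chr17:56627008-56664540, both on the plus strand. *Catsperg1* (ENSMUSG00000049676) at chr7:29189700-29214024 and *Catsperg2* (ENSMUSG00000049123) at chr7:29697219-29727008 lie on the minus strand of one chromosome and are copies of each other. Their longest protein-coding transcripts, of 3670 and 3957 bases, were 96.5% identical over 3658 aligned bases, and the longest stretch they shared without a difference was 341 bases. Of the 100-base windows of *Catsperg1*, 21.3% also occurred in *Catsperg2*, and of the 150-base windows 10.7%. Only uniquely mapped reads were counted, so reads that fall wholly in such a window could be missing from both genes, and the levels of the copies are uncertain. How many reads were lost was not measured.

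Promoter windows of 300 bases, from 250 before to 50 after the transcription start, were taken from RefSeq on GRCm38.p6, and 6 of the 8 genes matched. The entries missing were *Catsper1* and *Catsperg2*. The windows ranged from CG-rich to CG-poor. The windows of *Catsper2* and of the first start of *Catsperd* held 41 and 29 CG dinucleotides, against a median of 7 over all 32851 windows, and they stood at percentiles 96.5 and 87.1 of CG count. *Catsperb*, *Catsper4* and *Catsper3* had 1, 2 and 3 CG dinucleotides, at percentiles 5.43, 14.1 and 23.3. The first start of *Catsperg1*, with 8, was close to the median, and a second start each of *Catsperd* and *Catsperg1* had 12 and 9.

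**Figure D1:**
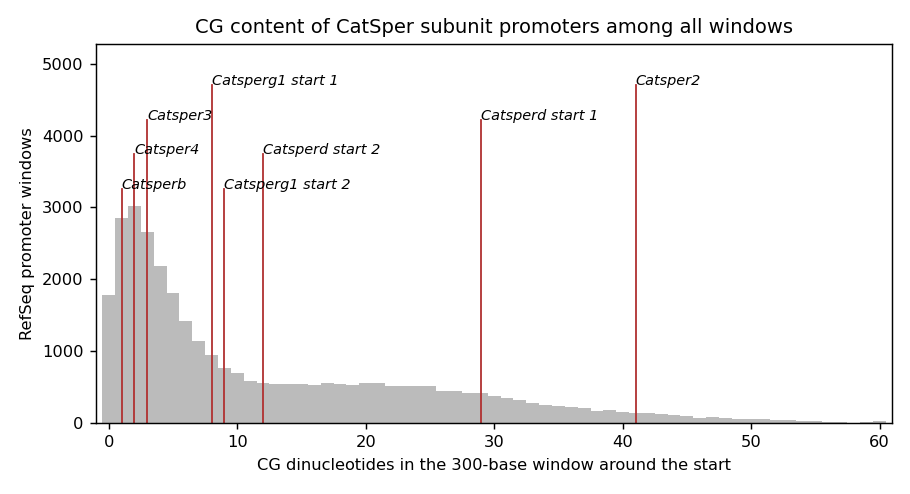
CG dinucleotides per promoter window of 300 bases, with all RefSeq windows as the histogram and the starts of the CatSper genes marked on it. *Catsper2* and the first start of *Catsperd*, with 41 and 29, stand right of the median of 7, and *Catsperb*, *Catsper4* and *Catsper3*, with 1 to 3, stand left of it.

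The windows on which the comparison of starts turns are printed 5′ to 3′ on the strand of the gene. The first and the third are the most CG-rich of the set and each begins beside a gene read in all 6 tissues, and the first, the second and the fourth carry the motif matches given after them. Capitals mark a match, and a window without capitals holds none.
Catsper2, chr2:121413743-121414042, minus strand: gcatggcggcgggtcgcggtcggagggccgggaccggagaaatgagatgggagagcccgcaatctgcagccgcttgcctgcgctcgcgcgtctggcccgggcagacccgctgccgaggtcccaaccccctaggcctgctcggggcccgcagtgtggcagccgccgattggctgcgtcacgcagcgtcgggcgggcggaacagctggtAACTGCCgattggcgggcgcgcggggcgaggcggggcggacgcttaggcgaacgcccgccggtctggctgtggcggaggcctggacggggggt
Catsperb, chr12:101404423-101404722, plus strand: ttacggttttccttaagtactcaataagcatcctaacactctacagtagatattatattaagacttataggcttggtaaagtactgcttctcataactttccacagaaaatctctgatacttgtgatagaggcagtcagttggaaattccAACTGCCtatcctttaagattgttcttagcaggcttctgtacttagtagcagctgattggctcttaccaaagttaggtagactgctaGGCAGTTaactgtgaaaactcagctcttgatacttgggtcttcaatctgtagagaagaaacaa
Catsperd first start, chr17:56626797-56627096, plus strand: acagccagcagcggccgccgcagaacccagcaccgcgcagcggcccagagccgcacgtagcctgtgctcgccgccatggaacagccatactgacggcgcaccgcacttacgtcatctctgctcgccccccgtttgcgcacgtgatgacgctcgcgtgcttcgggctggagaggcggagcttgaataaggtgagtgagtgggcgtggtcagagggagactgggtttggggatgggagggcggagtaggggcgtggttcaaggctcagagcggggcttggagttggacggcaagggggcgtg
Catsperg1 first start, chr7:29213984-29214283, minus strand: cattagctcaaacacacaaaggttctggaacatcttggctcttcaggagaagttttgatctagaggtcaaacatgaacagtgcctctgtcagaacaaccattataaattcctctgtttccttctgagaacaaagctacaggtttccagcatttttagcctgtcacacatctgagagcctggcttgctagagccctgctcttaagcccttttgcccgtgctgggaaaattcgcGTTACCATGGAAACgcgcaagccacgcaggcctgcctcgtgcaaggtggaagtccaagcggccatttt

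The letters searched, on both strands, were those of factors known in germ cells and cilia, and they were chosen after the sequences were seen. GGCAGTT, a core bound by MYB factors, occurred in 4.12% of all windows. It matched in *Catsper2*, 43 bases before the start on the minus strand of the window, and at 2 places in *Catsperb*, 100 bases before the start on the minus strand and 13 bases before it on the plus strand. The X-box, a palindrome bound by RFX factors and searched with 1 free base in each arm, occurred in 42 windows, or 0.128% of them. It matched as GTTACCATGGAAAC, 18 bases before the first start of *Catsperg1*, where the Iso-seq transcript began 9 bases from the RefSeq start. The pattern searched, with its free bases, reads alike from either side, so this site was matched on both strands. TGACGTCA, a cAMP response element as bound by CREM, and ACAATGG, a core bound by SOX factors, occurred in 1.79% and 3.66% of all windows and in none of the windows of these genes. Matches of different motifs did not overlap.

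Starts of neighbours on the opposite strand lay beside both CG-rich starts and beside the CG-poor start of *Catsper3*. The start of *Pdia3*, which encodes a protein disulfide isomerase of the endoplasmic reticulum, lies 17 bases inside *Catsper2* in GENCODE. The counted *Catsper2* locus shares 34 exon bases with *Pdia3* of GENCODE, but it did not overlap the locus on which *Pdia3* was counted. *Pdia3* was read in every tissue, at 45.3 FPKM in heart to 151 FPKM in ovary, with 92.7 FPKM in testis. FPKM here is the count scaled to the total of the library and to the kilobases of exon. The start of *Lonp1*, a mitochondrial protease, lies 160 bases before the first start of *Catsperd*, and *Lonp1* had its lowest mean, 13.6 FPKM, in testis and its highest, 48.5 FPKM, in ovary. The antisense gene *4930451E10Rik* starts 74 bases before *Catsper3*, and it had 2.86 FPKM in brain to 6.48 FPKM in heart, with 5.29 FPKM in testis. Most *Catsperd* transcripts did not begin there: 7 of 9 Iso-seq transcripts began within 50 bases of the second start and 1 of 9 within 50 bases of the first. The library kit keeps strand, but whether the counting used it is not given in the sources used here, so reads of overlapping opposite genes may not have been told apart.

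Iso-seq gave 22 transcripts of the 8 genes, 7 of pore and 15 of auxiliary subunits. Of these, 8 had the whole intron chain of a GENCODE transcript and 12 had at least 1 intron that GENCODE does not list. Transcripts with such introns were 2 of the 7 of pore subunits and 10 of the 15 of auxiliary subunits. *Catsperd* accounted for 8 of them, among its 9 transcripts of 6 to 24 exons. *Catsper3*, *Catsper4* and *Catsperb* had 1 transcript each, with 8, 11 and 27 exons, and each followed a GENCODE chain in full. The single transcript of *Catsperg1* had 22 exons and ended short of the GENCODE gene on the 3′ side, and its exons covered 2724 bases against a coding sequence of 3453 bases.

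The 29 libraries held 11742417 to 36194255 counts, and the 3 testis libraries 28459258 to 30925443. The 8 CatSper genes took 21725, 23818 and 21447 of the counts in testis. The tissue labels were set against marker genes. In testis, 5 of 5 markers each of spermatocytes, round spermatids and elongating spermatids were higher than the mean of the other groups on the log2 scale, where 40.6% of all genes were higher and 26.7% lower. So were 5 of 5 Leydig cell, 4 of 5 Sertoli cell and 6 of 6 motile cilia markers, while spermatogonia markers gave 3 higher and 2 lower of 5, and markers of brain and of heart 0 higher and 3 lower of 5 each. Single tissues could still lie above testis. Sertoli markers summed to 46.5 to 51.6 FPKM in testis, 70.6 to 95.9 FPKM in ovary and 74.5 to 108 FPKM in cerebellum. Against ovary alone they gave 3 higher and 2 lower and Leydig markers 4 higher and 1 lower, beside 37.8% and 26.5% of all genes. Of 5 colon markers 1 was higher and 2 lower, and of 5 ovary markers 1 was higher and 0 lower. Against ovary alone, 4 of the 5 ovary markers were lower in testis and 1 higher, yet their summed level was 64.1 to 124 FPKM in ovary and 127 to 241 FPKM in heart, where *Gdf9* had a mean of 176 FPKM. Whether another gene shares the Iso-seq locus on which *Gdf9* was counted was not checked. In bulk tissue fewer cells of a type and less RNA per cell cannot be told apart.

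The first question was how the pore and auxiliary subunits stand to each other in testis, where the level of each gene per exon length was read. *Catsper2*, whose product is one of the pore subunits, was the most abundant of the 8 with 65.7, 64.6 and 56.9 FPKM in the 3 libraries, a mean of 62.4 ± 4.77 FPKM (SD, n = 3). Per coding length it had 100.1 FPKM. This measure divides counts over all exons by the coding sequence alone, here 1764 bases against 2832 of exons, which raises the value. *Catsper1*, the pore subunit with a histidine-rich tail inside the cell, had 41.8, 43.8 and 37.6 FPKM, and *Catsper4*, another pore subunit, 40.6, 40.7 and 37.0 FPKM. *Catsper3*, the last of the pore subunits, had 29.5, 31.4 and 26.9 FPKM. The pore genes thus covered a wider range than the auxiliary ones, and *Catsper2* lay above every other member in each library.

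The auxiliary genes were closer together. *Catsperd*, a subunit with a large extracellular domain that is needed for a stable channel, had 32.8, 31.1 and 31.0 FPKM, and *Catsperb*, which also has a large extracellular domain, had 27.2, 28.6 and 23.1 FPKM. The copies *Catsperg1* and *Catsperg2*, which encode the gamma subunit, had 25.3, 25.9 and 24.4 FPKM and 23.3, 23.6 and 23.7 FPKM. Their library ranges did not overlap, but the order of the copies is uncertain. Per coding length it turned, with 27.8 ± 0.266 FPKM for *Catsperg2* and 19.9 ± 0.622 FPKM for *Catsperg1* (SD, n = 3). *Catsperg1* was counted on 2724 exon bases, fewer than its 3453 coding bases, which lowers its value per coding length. The turn therefore does not show which copy is more abundant.

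**Figure D2:**
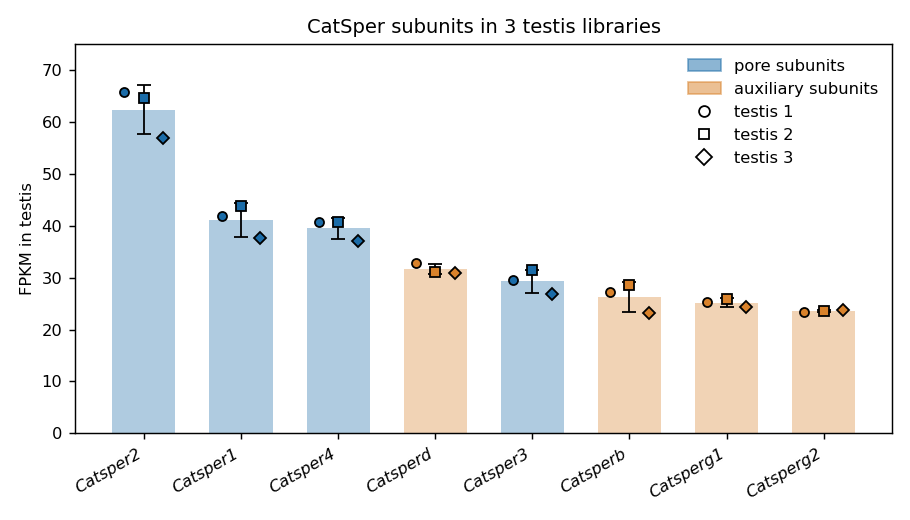
FPKM of the 8 CatSper genes in testis, with a point for each of 3 libraries and the mean with its SD. *Catsper2* has the highest mean, 62.4 FPKM, and *Catsperg2* the lowest, 23.5 FPKM.

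Placed in order of their means, the genes were *Catsper2*, *Catsper1*, *Catsper4*, *Catsperd*, *Catsper3*, *Catsperb*, *Catsperg1* and *Catsperg2*. Ranges of the 3 libraries did not overlap between *Catsper2* and *Catsper1*, which differed by 0.60 ± 0.046 on the log2 scale (SD, n = 3), nor between *Catsper4* and *Catsperd*, which differed by 0.32 ± 0.066. *Catsper1* and *Catsper4* differed by 0.06 ± 0.044, and their ranges overlapped. Per coding length *Catsper4* came before *Catsper1*, with 51.5 and 48.0 FPKM. The neighbours *Catsperd* and *Catsper3*, *Catsper3* and *Catsperb*, and *Catsperb* and *Catsperg1* overlapped likewise.

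The mean of the pore subunits was 44.4, 45.1 and 39.6 FPKM in the 3 libraries and that of the auxiliary subunits 27.2, 27.3 and 25.5 FPKM. Pore subunits were thus 1.64, 1.65 and 1.55 times as abundant, a log2 ratio of 0.69 ± 0.049 (SD, n = 3). All 3 libraries gave the same direction, which the choice of the members does not fix, and no test was run over so few genes. The size of the ratio depends on how length and the gamma copies are treated. It was 0.98 on the log2 scale per coding length and 0.27 when *Catsperg1* and *Catsperg2* were added together as 1 subunit. The value per coding length carries the mismatch of counted and coding bases described above.

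The second question was how far the genes are limited to testis. All 8 were higher in testis than in the mean of the other groups (edgeR, quasi-likelihood, P adjusted by Benjamini-Hochberg over 29911 genes), where 40.6% of all genes were higher. The log2 difference of *Catsper2* was 6.88 (SE 0.12, adjusted P = 6.49e-25) and that of *Catsper1* 13.32 (SE 0.27, adjusted P = 1.65e-17), the smallest and the largest of the 8. The median was 10.70 over the pore and 9.93 over the auxiliary subunits, against 0.11 over all genes. Differences over groups without a count depend on the small count that edgeR adds, and they are not bounds. With the number in the library code, grouped in steps of 10, as a further term, *Catsper4* had a log2 difference of 12.21 but an adjusted P of 1.0, and the calls of the other 7 members held.

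The libraries themselves were far apart. Every testis library lay above every other library for all 8 genes, which was so for 23.3% of all genes tested. For *Catsper1*, the lowest testis library was 354 times the highest level that 3 counts stand for in any other library, 3 counts being taken as the limit of a count of 0. For the other genes the highest of the 26 other libraries was above 3 counts, and the lowest testis library exceeded it by 222 times for *Catsperg2*, 133 times for *Catsper3*, 100.2 times for *Catsperb*, 88.9 times for *Catsperg1*, 62.9 times for *Catsper4*, 45.5 times for *Catsper2* and 38.1 times for *Catsperd*.

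**Figure D3:**
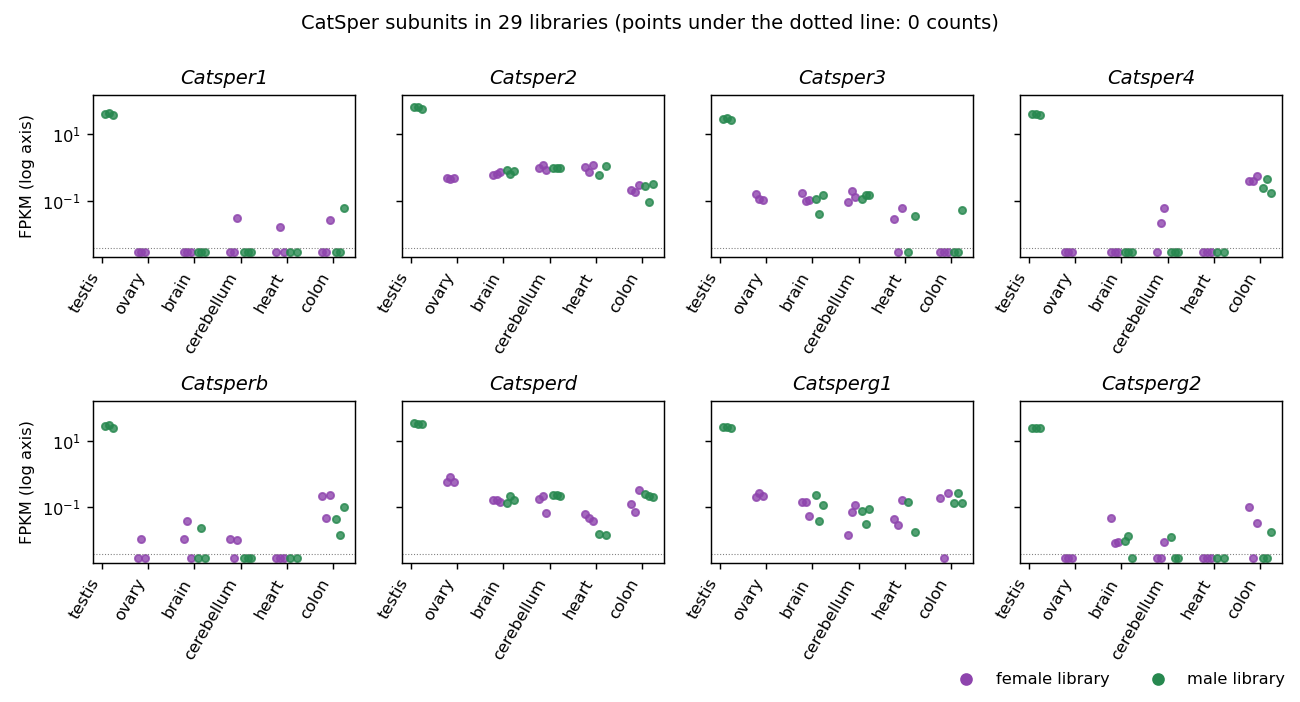
FPKM of the 8 CatSper genes in all 29 libraries on a log axis, by tissue and sex, with libraries without a count drawn below the dotted line. The testis libraries, at 23.1 to 65.7 FPKM, lie above every other library of each gene, the highest of which is a female heart library with 1.25 FPKM of *Catsper2*.

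The gonads were compared directly. All 8 genes were higher in testis than in ovary, where 37.8% of all genes were, with log2 differences from 6.23 for *Catsperd* to 14.41 for *Catsper1*. *Catsper1*, *Catsper4* and *Catsperg2* had no count in the 3 ovary libraries, which allows up to 0.0691, 0.0962 and 0.0409 FPKM. *Catsperb* had 1 count, in the second library, and its difference of 12.73 was 14.30 without that library. *Catsperd* had 34, 66 and 51 counts in ovary, and *Catsper2* had 26, 33 and 39. *Catsperg1* had 10, 18 and 17, and *Catsper3* and *Catsperb* at most 4 in a library.

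Tau, a measure that is 0 for a gene at one level in all tissues and 1 for a gene found in one tissue, was taken over the 6 tissue means in FPKM. It ran from 0.989 for *Catsper2* to 1.000 for *Catsper1* and *Catsperg2*. The median over the 16552 protein-coding genes with a tissue mean of at least 1 FPKM was 0.680, and 9.29% of them had a tau at or above that of *Catsper2*.

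Outside testis, the genes differed in how widely they were detected. *Catsper2* and *Catsperd* had counts in all 26 other libraries and *Catsperg1* in 25. *Catsper3* was counted in 19 libraries, *Catsperb* in 12, *Catsperg2* in 10, *Catsper4* in 8 and *Catsper1* in 4. All 4 pore genes had a count in 2 of these 26 libraries, the third of female cerebellum, with 2 counts of *Catsper1* and 3 of *Catsper4*, and the third of male colon, with 2 and 4. In brain, *Catsper1* and *Catsper4* had no count in 6 libraries, with limits of 0.0511 and 0.0711 FPKM.

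**Figure D4:**
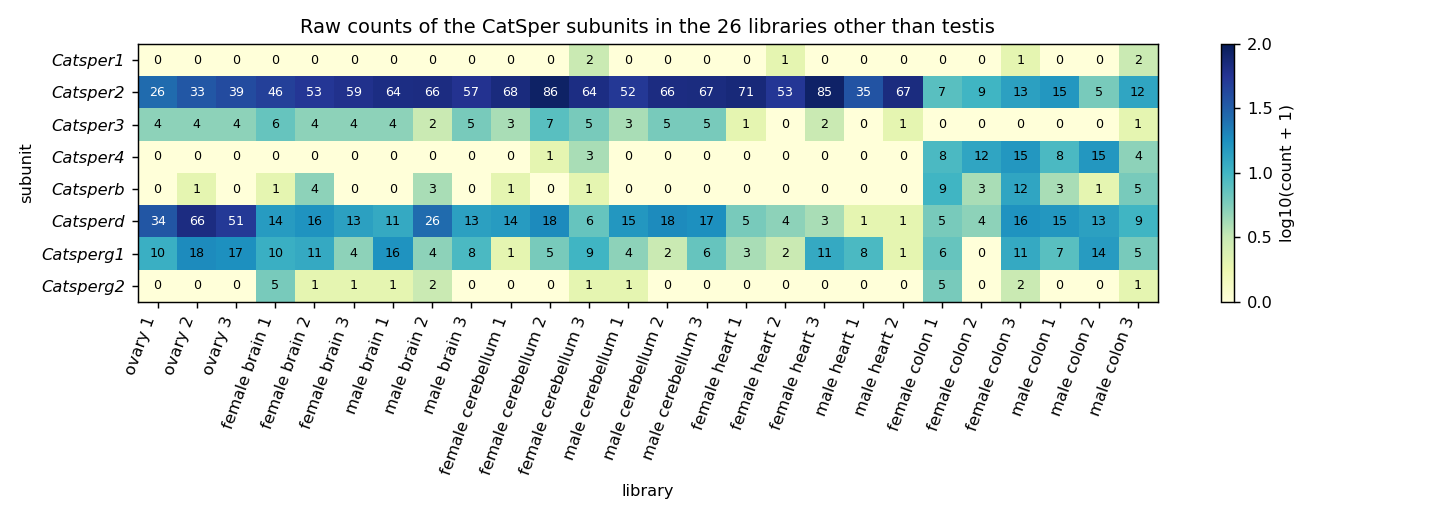
Raw counts of the 8 CatSper genes in each of the 26 libraries outside testis, with rows for genes and columns for libraries. *Catsper2* has 5 to 86 counts in every library, *Catsper4* has its counts in colon apart from 2 cerebellum libraries, and *Catsper1* is at 0 in 22 of them.

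In the test of equality over the 9 groups outside testis, 6 of 8 genes differed (edgeR, adjusted P under 0.05), where 80.4% of all genes did. *Catsper1* (adjusted P = 0.384) and *Catsperg1* (adjusted P = 0.456) were the genes not called.

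*Catsper2* was counted in brain and heart at levels that no other pore subunit reached. It had 46 to 66 counts in the 6 brain libraries, 52 to 86 in cerebellum and 35 to 85 in the 5 heart libraries, but 5 to 15 in colon. Its mean was 0.988 FPKM in cerebellum, 0.961 in heart, 0.733 in brain, 0.489 in ovary and 0.233 in colon. Brain was higher than ovary by 1.01 on the log2 scale (adjusted P = 0.000537, with 56.8% of all genes called) and ovary than colon by 0.79 (adjusted P = 0.0151, with 48.0% called), and the library ranges of each of these pairs did not overlap. With RLE, ovary minus colon was 0.60 and not called (adjusted P = 0.0675), and with library totals heart minus brain was 0.38 (adjusted P = 0.0927), against 0.81 by TMM (adjusted P = 0.000476). The order of cerebellum and heart depends on the scaling. Heart was higher than cerebellum by TMM, with cerebellum minus heart at -0.51 (adjusted P = 0.0204, with 57.4% of all genes called), but the difference was 0.06 (adjusted P = 0.884) with library totals, and the call ended without the third female cerebellum (adjusted P = 0.0553), the first female heart (adjusted P = 0.0698) or the second male heart library (adjusted P = 0.386). The TMM factors of the heart libraries were 0.604 to 0.711 except for 1 female library at 1.12.

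*Catsper4* stood out in colon. The 3 female and 3 male colon libraries had 8, 12, 15, 8, 15 and 4 counts, a mean of 0.378 FPKM. Brain, heart and ovary had none, and cerebellum had 1 and 3 counts in 2 of 6 libraries. Colon was higher than cerebellum by 5.17 on the log2 scale (SE 0.56, adjusted P = 1.05e-06), where 66.1% of all genes differed between those tissues, and every colon library lay above every cerebellum library. *Catsperb* was likewise higher in colon than in the next tissue, brain, by 2.51 (SE 0.65, adjusted P = 0.00194, with 68.3% of all genes called), with 9, 3, 12, 3, 1 and 5 counts in the colon libraries, and the library ranges of colon and brain overlapped. That difference was 3.25 without the second female brain library and 3.98 without the second male brain library, and it stayed called without each library.

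Colon also held counts of elongating spermatid genes. The 5 elongating spermatid markers *Prm1*, *Prm2*, *Tnp1*, *Tnp2* and *Odf1*, which package sperm DNA or build the tail, summed to 225, 11, 163, 20, 0 and 105 counts in the same colon libraries in the same order, to 0 to 21 counts in every other library outside testis, and to 355149 to 467869 counts in testis. The 5 round spermatid markers summed to 6, 6, 16, 5, 6 and 13 counts in these colon libraries, 249 to 403 in brain and 26549 to 28183 in testis. The brain sum, 4.17 to 5.95 FPKM, rests mainly on *Spag6l*, which reached 5.25 FPKM in its highest library outside testis. *Acrv1*, *Spaca1*, *Acr* and *Spata16* reached at most 0.135, 0.582, 0.402 and 0.157 FPKM there. The library of male colon in which all 5 markers were at 0 had 15 counts of *Catsper4*, as many as the highest colon library. *Catsperb* had 1 count there, and its highest counts, 9 and 12, were in the female libraries with 225 and 163 marker counts. *Catsperg2*, with 5, 0, 2, 0, 0 and 1 counts in colon, was called among the groups outside testis (adjusted P = 0.0323), but the call was lost without the first female colon library (adjusted P = 0.0959) or the third (adjusted P = 0.0571). In the testis libraries, beside the marker sums given above, *Catsper4* had 1970 to 2178 counts, *Catsperb* 2510 to 3131 and *Catsperg2* 2692 to 2965. The part of testis RNA in the colon values was not tested.

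*Catsperd* was highest outside testis in ovary, at 0.650 FPKM. It was higher there than in colon by 1.42 on the log2 scale (SE 0.29, adjusted P = 0.000262), and higher in brain than in heart by 2.13 (adjusted P = 0.000197), where 58.8% of all genes were called. Both pairs had ranges that did not overlap. *Catsper3* had means of 0.143, 0.130 and 0.116 FPKM in cerebellum, ovary and brain, which did not differ past the threshold, and it was higher in brain than in heart by 1.71 (adjusted P = 0.0253), a call that ended without the second female heart (adjusted P = 0.0666), the third male brain (adjusted P = 0.0700) or the first male heart library (adjusted P = 0.140), and the difference was 3.21 without the second male heart library. Of 32 pairs of tissues next to each other in these orders outside testis, 4 had no count in either tissue and could not be called, and 9 of the other 28 were called, and the pairs of tissues had 26.1% to 68.3% of all genes called. Those without a value above were brain and cerebellum with 26.1%, heart and colon with 53.9%, ovary and cerebellum with 53.5% and ovary and heart with 44.0%. *Catsperg1* was called in none of its neighbouring pairs, and its means ran from 0.0678 FPKM in cerebellum to 0.230 FPKM in ovary. Between tissues farther apart in its order, ovary was higher than cerebellum by 1.44 on the log2 scale (SE 0.57, adjusted P = 0.0343), and cerebellum minus colon was -1.24 (SE 0.54, adjusted P = 0.0467).

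Male and female libraries were compared in brain, cerebellum, heart and colon. Of the 32 tests, 5 were of genes with no count in either sex, *Catsper1* and *Catsper4* in brain and *Catsper4*, *Catsperb* and *Catsperg2* in heart, and could not show a difference. Of the 6, 8, 5 and 8 genes with counts in brain, cerebellum, heart and colon, 0 were called by edgeR, where 0.0368%, 0.0301%, 0.0635% and 0.324% of all genes did. Of the 27 tests with counts, 3 had an unadjusted P under 0.05, which were those of *Catsper4* in cerebellum (edgeR, unadjusted P = 0.0317) and of *Catsperb* (edgeR, unadjusted P = 0.0212) and *Catsperg2* (edgeR, unadjusted P = 0.0352) in colon, and DESeq2 called 0 with 2 unadjusted. For *Catsper2*, the member with the most counts in these tissues, the male minus female log2 difference was 0.25 (SE 0.25) in brain, -0.04 (SE 0.24) in cerebellum, 0.02 (SE 0.28) in heart and -0.23 (SE 0.37) in colon. The interaction of sex with tissue was called by edgeR for 0 of 8 genes, where 0.0167% of all genes were called, with 0 unadjusted and a lowest adjusted P of 0.886.

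The other subunits of the CatSper complex were higher in testis than in the other groups in 8 of 9 cases, where 40.6% of all genes were, with a median log2 difference of 8.48. In testis they covered a wider range of levels than the 8 genes above. *Catsperz*, a small partner of the calcium sensor *Efcab9*, had 349.6 FPKM on a locus that it shares with *Kcnk4*, and *Efcab9* had 62.6 FPKM. *C2cd6*, *Trim69* and *Slco6c1*, whose products have been found with the channel, had 109, 78.5 and 70.9 FPKM. *Catspere1*, an unprocessed pseudogene in GENCODE, had 22.0 FPKM, and *Tmem249* had 12.3 FPKM. *Tmem262* had 16.3 FPKM in testis and up to 4.77 FPKM in another library, with a log2 difference of 3.14 and a tau of 0.847, both below those of all 8 members. *Catspere2* was the gene not called, with 0.998 FPKM in testis and 3.0 FPKM in cerebellum and a log2 difference of -0.24 (adjusted P = 0.306). Its counted locus was a single exon of 2989 bases that shares 282 bases with the gene, so its values may belong to another transcript.

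Genes for other parts of sperm calcium and motility control were compared as lists. Of 10 sperm ion transport genes, 8 were higher in testis than the mean of the other groups on the log2 scale and 1 lower, with a median log2 difference of 5.31, where 40.6% of all genes were higher and 26.7% lower. Among the 8, *Cftr*, an anion channel, had 4.29 FPKM in testis and 23.7 FPKM in colon, and *Hvcn1*, a proton channel, 5.57 FPKM in testis and 6.53 FPKM in ovary. The highest in testis were *Atp1a4*, the sodium pump of sperm, *Slc26a8*, an anion transporter, *Slc9c1*, the sperm sodium-proton exchanger, and *Kcnu1*, the sperm potassium channel, with 174, 47.2, 34.5 and 23.8 FPKM. *Slc8b1*, the mitochondrial sodium-calcium exchanger, was lower by -1.40 (adjusted P = 3.45e-06), and *Atp2b4*, a calcium pump, had 0.18 (adjusted P = 0.426), with a sign that changed under library totals.

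Of 10 motility signalling genes, 8 were higher and 1 lower, with a median of 9.29, beside 40.6% and 26.7% of all genes. *Akap4* and *Akap3*, anchors of protein kinase A in the fibrous sheath, had 1133 and 373 FPKM, *Gapdhs*, the sperm form of a glycolytic enzyme, 793 FPKM, and *Cabyr*, a calcium-binding sheath protein, 222 FPKM. *Abhd2*, a lipid hydrolase that links progesterone to CatSper, was lower by -0.43 (adjusted P = 0.0113), a call that did not hold under RLE (adjusted P = 0.0629), and *Prkaca*, the catalytic subunit of protein kinase A, had -0.13 (adjusted P = 0.576). The sign of *Prkaca* changed under RLE, and with library totals it was called lower, at -0.33 (adjusted P = 0.0410).

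Of 10 voltage-gated calcium channel pores, 3 were higher and 4 lower in testis than the mean of the other groups on the log2 scale, with a median of -0.38, beside 40.6% and 26.7% of all genes. *Cacna1h*, a T-type channel, was the most abundant in testis with 22.7 FPKM and a difference of 4.21, and *Cacna1s*, the next, had a difference of 2.71. *Cacna1d* had 0.76 (adjusted P = 0.000324), which was not called with library totals (adjusted P = 0.0585), and its mean was 2.25 FPKM in testis and 3.01 FPKM in cerebellum. *Cacna1c*, *Cacna1e*, *Cacna1g* and *Cacna1b* were lower, at -3.64, -3.54, -2.74 and -1.15. The 4 CatSper pore genes together reached 158 to 181 FPKM in the testis libraries.

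**Figure D5:**
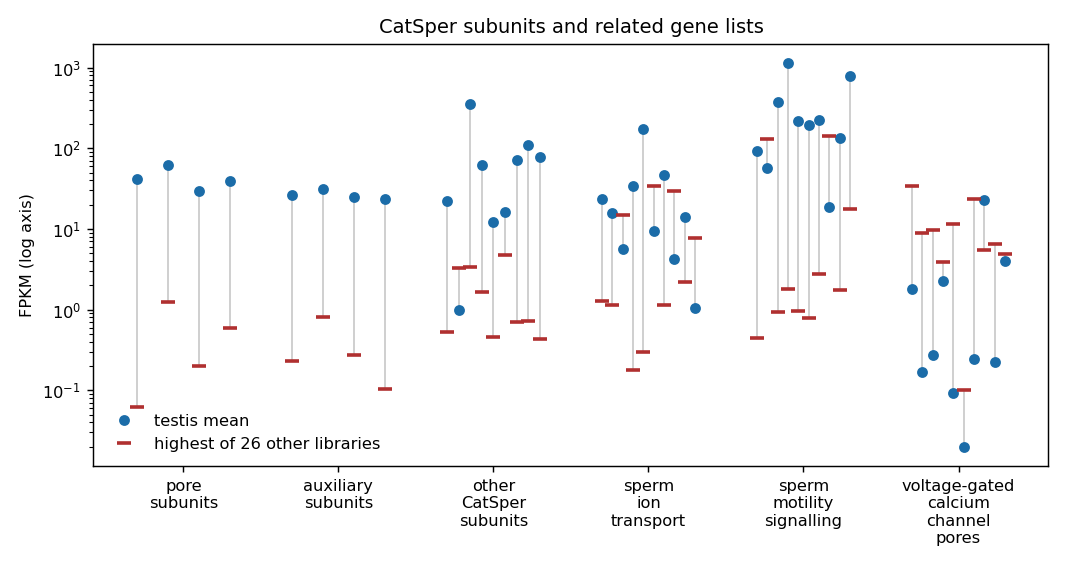
Mean testis FPKM of the CatSper genes and of the compared lists as dots, against the highest of the 26 other libraries, on log axes. The 8 CatSper genes lie at 23.5 to 62.4 FPKM in testis with at most 1.25 FPKM elsewhere.

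The genes whose pattern was most like that of the CatSper genes were looked for by Pearson's correlation of log2(FPKM + 0.1) over the 29 libraries with the mean of the 8 members. The first 5 were *Gk2*, *Ankrd60*, *Glt6d1*, *4932431P20Rik*, a transcribed unitary pseudogene, and *Znrf4*, with r of 0.998, 0.998, 0.997, 0.997 and 0.997. A value of 0.95 was reached by 2731 of 29903 genes, or 9.13%, and the points share libraries and depth. The members had r from 0.931 for *Catsper2* to 0.997 for *Catsper1*, but each is part of that mean, so these values cannot be set beside those of other genes.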

How the data were processed

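RNA-seq counts of 29 adult mouse libraries were used. Unnormalized read counts per gene were deposited by the authors as whole numbers, and all 29 columns were used as deposited. The submitters' processing notes name HISAT2 2.0.5, featureCounts 1.6.3 and mm10, and reads that mapped to more than 1 place were not counted, per the Methods. Iso-seq samples entered through the deposited annotation only.

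FPKM was computed from counts, library totals and the union of exons. Groups were compared with edgeR 4.0.16 (quasi-likelihood, TMM, filterByExpr by group with a minimum count of 10, R 4.3.3) in 1 fit over 29 libraries, with Benjamini-Hochberg adjustment over 29911 genes and a threshold of 0.05. The fit was also run on simulated counts in which few genes changed, and by far less than the CatSper genes differ here. That run is therefore no check of differences as large as these. DESeq2 1.42.0 was the alternative. The median of 0.11 over all genes for testis against the other groups was 0.24 with RLE, -0.12 with library totals and 0.26 with DESeq2. Totals of 11742417 to 36194255 counts set the precision, and limits for a count of 0 were 3 counts, for counting error only. The *Catsperg1* and *Catsperg2* transcripts were aligned with MAFFT 7.526.

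The members and lists were chosen with earlier results of these data known. The genes named were the 8 members, the other CatSper subunits, up to 4 genes per list with the highest testis FPKM with those going against their list, the 5 most alike, and overlapping or neighbouring genes. *Pdia3*, *Lonp1*, *Cftr*, *Hvcn1*, single marker genes, the motifs and *Cacna1* genes beyond 4 were named after values were seen. Samples were not paired by replicate number in the main fit. Of same-numbered pairs of libraries, 0 of 56 correlated over 0.1 in their deviations from group means. Of pairs with codes in the same step of 10, 4 of 53 did (up to 0.223), and of pairs with other codes 2 of 115 (up to 0.279). With so few libraries per group, these correlations cannot exclude that libraries came from the same animals.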

Additional observations from a re-analysis of the deposited data

How the results depend on the processing

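The log2 ratio of pore over auxiliary subunits in testis, 0.69, was 0.60 with the longest transcript, 0.98 with coding length, 0.64 with the median of 4 subunits and 0.27 with *Catsperg1* and *Catsperg2* summed, and 0.67 to 0.72 without each library. The lowest tau, 0.989, was 0.879 on log2(FPKM + 1) and 0.990 with TMM sizes. *Catsper2* in cerebellum minus heart turned from -0.51 to 0.0588 with library totals, where its heart minus brain difference was 0.38 (adjusted P = 0.0927), and its ovary minus colon difference was 0.60 with RLE (adjusted P = 0.0675). The cause was not tested.

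The counts of members called, 8 against the other groups and 8 against ovary, held under every alternative run except that *Catsper4* lost its call against the other groups with the library code as a term. The count outside testis was 5 to 6 without each library, that of neighbouring tissues 8 to 9, and sex gave 0 in each tissue. With the replicate number as a block, the counts were 8, 8, 6 and 9, with 0 for sex, and no call of a member changed. Settings added after seeing the data were library totals and, for neighbouring tissues and sex, the other alternatives. *Catsper2* in cerebellum and heart was not called without the third female cerebellum, the first female heart or the second male heart library (-0.43, -0.39 and -0.24). *Catsper3* in brain and heart was 1.28 to 3.21 without each library. Low counts outside testis limit these comparisons.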
